A study of Mus musculus with 20 samples.

Results

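Ribosomal proteins build the particles that translate messenger RNA, and a mouse cell makes 2 separate sets of them. Both sets are encoded in the nucleus. Here they were followed on 20 arrays of LβT2 cells, a mouse pituitary gonadotrope cell line, after 4 h of gonadotropin-releasing hormone (GnRH) given in pulses or continuously. The members were the probe sets tied to a single gene symbol of the Rpl, Rps, Rplp, Rpsa, Mrpl or Mrps series, leaving out the ribosomal S6 kinases. This gave 125 probe sets of 96 genes among the 12488 probe sets of the array. Of these, 49 probe sets of 35 genes belong to the cytosolic ribosome and 76 probe sets of 61 genes to the mitochondrial ribosome. A further 44 probe sets that the platform annotation ties to several symbols, many of them a ribosomal protein gene with its pseudogenes, were left out, so Rps6 and Rpl3 are not among the members.

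The cytosolic ribosome translates nearly all cellular messages. Its protein genes are among the most strongly transcribed in any growing cell, and many of their messages start with a pyrimidine tract through which growth signals and the mTORC1 kinase set how much of the message is translated. The mitochondrial ribosome makes the few respiratory chain subunits encoded by mitochondrial DNA, and its proteins are imported into the organelle. GnRH reaches the pituitary from the hypothalamus in pulses and is known in gonadotropes to activate MAP kinases and protein synthesis.

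The cells were grown on microcarrier beads, kept without serum overnight and perifused in columns. Each of 10 groups holds 2 arrays. GnRH at 100 nM was given as 1, 2, 4 or 8 pulses of 2 min or without interruption (tonic), GnRH at 10 nM as 1, 4 or 8 pulses or tonic, and the unstimulated group received medium only. Repeated pulses were 118, 58 or 28 min apart. RNA was taken once, when perifusion ended, so groups with more pulses also had a shorter time since the last one. Every column held cells of this single established line. Whether the arrays of a group stand for separate cultures is not in the labels, and the p-values cover the spread between arrays and nothing more. Groups follow the sample titles. A second label field, the number of pulses among the characteristics, contradicts the title for 8 of the 20 arrays. Replicate letters A and D mark the unstimulated and 100 nM arrays, and B and C the 10 nM arrays.

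Signals are in the arbitrary units of the deposited tables. The array median ran from 705 to 836 and precision is limited by how few arrays a group holds. The gonadotrope genes Cga, Lhb, Pitx1 and Nr5a1 had a probe set above 427, the limit used here for low signals, on all 20 arrays. Gnrhr passed it on 19 and Fshb on 1. Of the markers of other cells, Pomc, Tshb and Ptprc passed on 0 arrays, Prl on 4, Gfap on 9, Cd68 on 17, Alb on 19, and Gh, Col1a1 and Pecam1 on 20. The summed signal of the other-cell markers was 7832 to 8100 in unstimulated arrays, 7181 to 10013 at 100 nM and 7064 to 9560 at 10 nM. That of the gonadotrope markers was 197667 to 220768 in unstimulated arrays, 212750 to 298520 at 100 nM and 213411 to 254778 at 10 nM. Its brightest probe sets by far were those of Cga, with median signals of 85583 and 97565, beside 23461 for Pitx1. Cga (94700_at) itself rose with 100 nM against unstimulated (0.51, adjusted p from limma = 0.032), so the sum mainly follows Cga. Over a wider gonadotrope list of 12 tested probe sets, which holds the GnRH-induced factor Egr1, 3 rose and 6 fell with tonic 100 nM against unstimulated (median -0.50). Of all tested probe sets 8.59% rose and 11.8% fell there. At 100 nM 2 were higher and 5 lower than at 10 nM (median -0.25), beside 10.9% and 12.7% of all. Of 9 tested probe sets of other cell types 1 rose and 1 fell with 100 nM against unstimulated, beside 6.37% and 7.84% of all. These were Cd68 (log2 difference 1.34) and Prl (-1.27). The part of these markers in the results was not tested.

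Differences are on the scale of log2(signal + 166.8), given ± the standard error of a limma fit to all 20 arrays, with p-values adjusted over all 8491 tested probe sets by the Benjamini-Hochberg method. A probe set was called when its adjusted p was under 0.05. Counts at an unadjusted p under 0.05 take both directions together. No share over all tested probe sets stands beside them, so they are not read as results. Of the 125 members, 104 had a signal above 427 on at least 2 arrays and were tested, 36 cytosolic and 68 mitochondrial. The 21 others stayed at low signals, among them Rps27l (a p53-responsive relative of Rps27), whose highest signal on any array was 299, and both probe sets of Mrpl14. Of the tested cytosolic members 22 lay among the brightest 10% of all tested probe sets and 10 among the dimmest 30%. Of the tested mitochondrial members 14 lay among the brightest 10% and 3 among the dimmest 30%.

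With GnRH the medians of the 2 classes mostly lay farther apart than without it. For each array the median member was set against the mean of the unstimulated arrays. The cytosolic median was -0.06 and 0.06 log2 units in the unstimulated arrays, 0.10 to 0.51 in the 8 arrays given 10 nM (median 0.24) and 0.07 to 0.66 in the 10 arrays given 100 nM (median 0.35). All 18 stimulated arrays lay above both unstimulated arrays. The mitochondrial median was -0.05 and 0.05 in the unstimulated arrays, -0.07 to 0.32 at 10 nM (median 0.04) and -0.36 to 0.10 at 100 nM (median -0.11). Its highest values were in the groups given 1 or 4 pulses of 10 nM, and its lowest in those given 8 pulses or tonic GnRH at 100 nM.

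The distance between the class medians shows the same spread in a single number, compared with its mean in unstimulated arrays, which were at -0.12 and 0.12. It was 0.05 and 0.31 after 1 pulse of 100 nM, 0.42 and 0.20 after 2 pulses, 0.45 and 0.63 after 4 pulses, 0.75 and 0.48 after 8 pulses, and 0.70 and 0.85 with tonic 100 nM. At 10 nM it was -0.06 and 0.08 after 1 pulse, 0.12 and 0.19 after 4 pulses, 0.17 and 0.21 after 8 pulses, and 0.37 and 0.30 with tonic delivery. The highest 2 arrays of all were tonic 100 nM D and 8 pulses 100 nM A. At 100 nM the arrays given 1 and 2 pulses overlapped. Those given 8 pulses overlapped with 4 pulses and with tonic GnRH, while both arrays of 4 pulses lay below both tonic ones. Each array of these 3 groups lay above those given 1 or 2 pulses. The classes differ in signal. Of 10 equal bins of signal, from dim to bright, bin 10 holds 22 cytosolic and 14 mitochondrial members. With tonic 100 nM the median difference of all tested probe sets was 0.14 in bin 10 and -0.11 in bin 9. In bins 5 to 8 it lay between -0.17 and -0.20. How much of the distance goes with signal rather than with class was not tested.

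**Figure D1:**
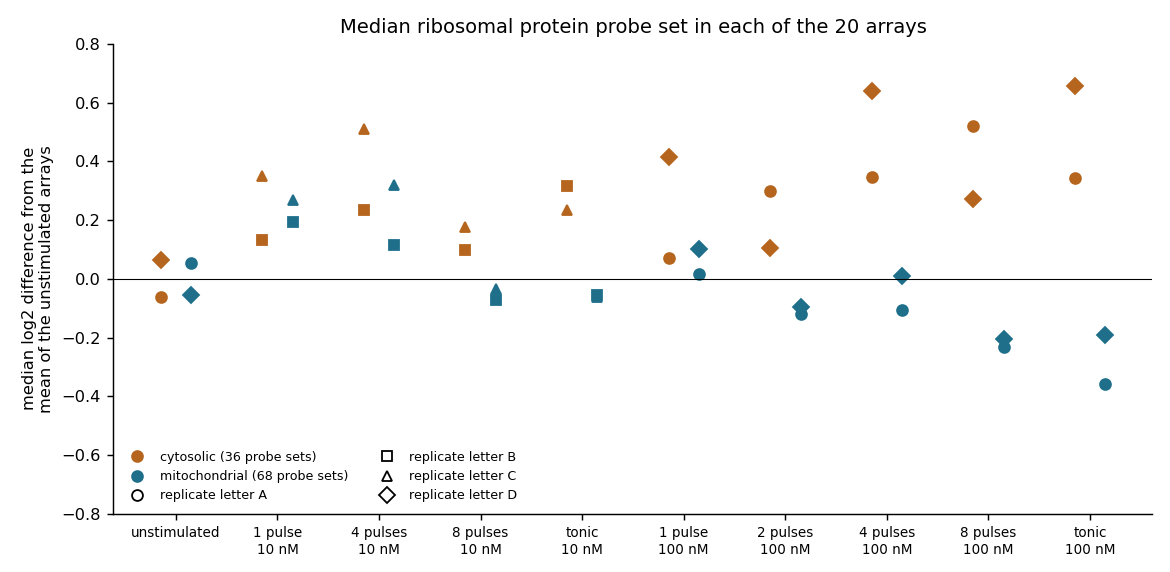
Median log2 difference of the tested cytosolic (brown) and mitochondrial (blue) members from the unstimulated mean, for each of the 20 arrays in 10 groups; marker shapes give the replicate letter. The cytosolic medians of the stimulated arrays run from 0.07 to 0.66 and all lie above the unstimulated ones, and the mitochondrial medians fall to -0.36 with tonic 100 nM.

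The first comparison asked what 100 nM GnRH did over its 5 patterns (10 arrays against 2). Among the cytosolic members 6 rose and 1 fell, and among the mitochondrial members 0 rose and 7 fell. Of all tested probe sets 6.37% rose and 7.84% fell in this comparison. The median difference was 0.35 over the 36 cytosolic and -0.11 over the 68 mitochondrial members, beside -0.05 over all tested probe sets. In 10 equal bins of signal, from dim to bright, all probe sets had medians of -0.10, -0.15, -0.14 and -0.12 in bins 5 to 8. Bins 9 and 10 had -0.04 and 0.14. Bins 5 to 10 hold 6, 8, 9, 13, 14 and 14 mitochondrial members. A difference of this class from probe sets of like signal was not tested. The cytosolic members above 0 numbered 33 of 36, and the mitochondrial members below 0 numbered 51 of 68. No such share over all tested probe sets stands beside these counts, so the signs are not read as particular to a class. With groups taken from the contradicting label field 0 members of either class passed, and with the 12 samples whose labels agree also 0.

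Of the 6 cytosolic members that rose 4 belong to the small subunit, as do 20 of all 36 tested cytosolic members. Rps3, a small subunit protein at the message entry channel that also has a role in DNA repair, had signals of 46967 and 52868 in the unstimulated arrays. In the 100 nM arrays it ran from 55339 to 89769 (median 66682), and in the 10 nM arrays from 54211 to 71090 (median 61795). All 18 stimulated arrays lay above both unstimulated ones, and the difference for 100 nM was 0.47 ± 0.13 (adjusted p = 0.0201). Rps3a1, a protein of the small subunit platform, read 64018 and 65240 without GnRH and 73213 to 119362 (median 92970) with 100 nM, again without overlap. Its difference was 0.50 ± 0.14 (adjusted p = 0.0268).

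Rps7, a small subunit protein that can also bind the p53 regulator Mdm2, read 49711 and 51986 without GnRH and 56921 to 97828 (median 69328) with 100 nM. The groups did not overlap and the difference was 0.44 ± 0.14 (adjusted p = 0.0397). Rps18, a protein of the small subunit head, rose by 0.43 ± 0.14 (adjusted p = 0.0422). In the large subunit, Rpl7 (probe set 97695_s_at) read 60737 and 64307 without GnRH and 72961 to 117689 (median 87278) with 100 nM, a difference of 0.49 ± 0.15 (adjusted p = 0.0356). Rpl10a, a large subunit protein next to the exit of transfer RNA, was measured by a pair of probe sets. One (161327_f_at) rose by 0.47 ± 0.15 (adjusted p = 0.0483), and the other (100711_at) read 28805 and 34068 without GnRH and 30281 to 54482 with 100 nM, so that its groups overlapped.

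Members that are often used as stable references were also above their unstimulated level without passing the test. Rplp0, the core of the large subunit stalk, read 58759 and 72638 without GnRH and 63399 to 108745 (median 82476) with 100 nM, a difference of 0.33 ± 0.15 (adjusted p = 0.162). Rpsa, the small subunit protein also known as the laminin receptor, read 10639 and 10925 without GnRH and 11131 to 18505 (median 13507) with 100 nM. All its 100 nM arrays were above both unstimulated ones, and the difference was 0.36 ± 0.14 (adjusted p = 0.0972).

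Rpl22 was the 1 cytosolic member that fell. This large subunit protein is dispensable for general translation and is known for its role in lymphocyte development. Its probe set 92857_at read 2303 and 3054 without GnRH, 1170 to 2079 (median 1638) with 100 nM and 1134 to 2119 (median 1702) with 10 nM. All 18 stimulated arrays lay below both unstimulated ones, and the difference for 100 nM was -0.68 ± 0.17 (adjusted p = 0.0137). The other Rpl22 probe set (92856_at) went the opposite way, from 838 and 490 to 653 to 1197 (median 982), and was not called. Over the 14 genes with at least 2 tested probe sets, the probe sets of 7 had opposite signs, 3 cytosolic (Rpl22, Rps24 and Rps28) and 4 mitochondrial.

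The level of the cytosolic members moved with that of all bright probe sets. The brightest 10% of tested probe sets had a median difference of 0.14 for 100 nM against unstimulated, and the 22 cytosolic members within it had 0.42, with 22 of 22 above 0. The share above 0 over all of the brightest 10% is not given, so this sign count is not read as particular to the class. The 99th percentile of signal was 37359 and 39371 in the unstimulated arrays and 40667 to 56828 in the 100 nM arrays, without overlap. Over the 20 arrays, which share the authors' scaling, the median of these cytosolic members followed the median of the brightest 10% (Pearson r = 0.902, Spearman rho = 0.808, and r = 0.832 without the 2 farthest arrays). With quantile normalisation, which gives every array the same distribution, the cytosolic median was 0.05 and 0 members rose, with cyclic loess 0.12 and 0, and after setting the array medians equal 2 rose. Scaling also moved the balance over all probe sets. Of all calls in this comparison 44.8% were higher as deposited and 58.5% after cyclic loess, with tonic 100 nM 42% and 57.5%, and for 10 nM 65.4% as deposited and 82.7% with array medians set equal. Without a filter on low signals 0 cytosolic members rose, and with a stricter filter 11.

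The cytosolic count rested on single arrays too. It was 0 without either unstimulated array, 2 without 8 pulses A, 2 pulses A, 1 pulse D or tonic D of the 100 nM arrays, 3 without 4 pulses D at 100 nM or either array of 8 pulses at 10 nM, and 10, 11 and 14 without tonic A, 4 pulses A and 1 pulse A at 100 nM. It was 15 with the letter as a replicate block, a pairing of the arrays that the main fit leaves out.

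**Figure D2:**
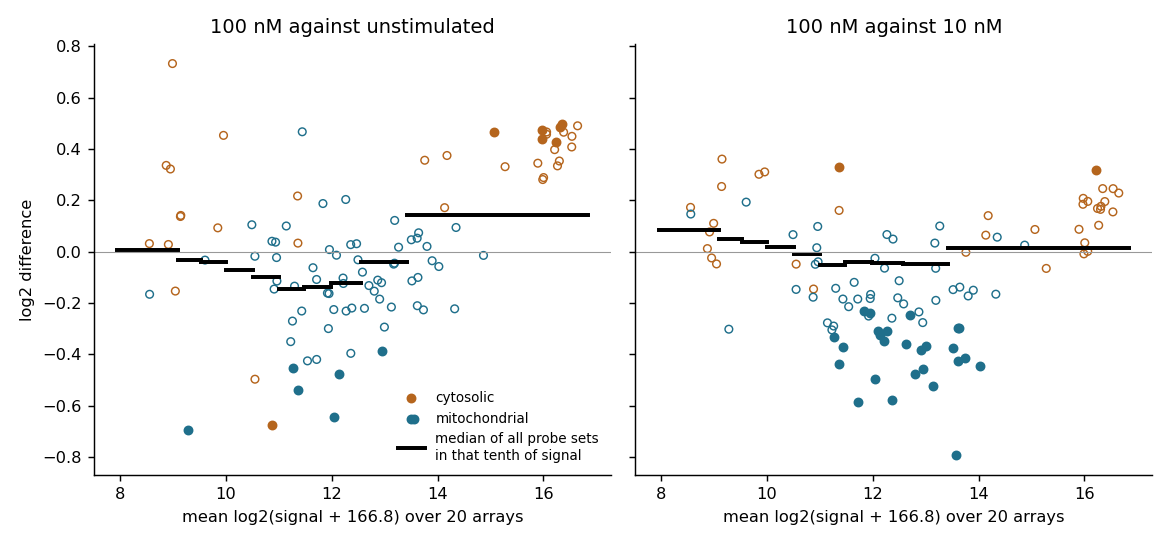
Log2 difference of each tested member (brown cytosolic, blue mitochondrial, filled when the adjusted p was under 0.05) against its mean log2(signal + 166.8) over 20 arrays, for 100 nM against unstimulated (left) and against 10 nM (right). Black lines are the medians of all probe sets in 10 equal bins of signal; on the left the brightest bin has a median of 0.14 and the 22 cytosolic members in it lie above 0.

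The mitochondrial members that fell with 100 nM came from both subunits, 5 of 43 tested from the large and 2 of 25 from the small. Mrps34, a small subunit protein that is needed for assembly of that subunit, read 13444 and 16032 without GnRH and 5970 to 14784 (median 8917) with 100 nM. Of the 10 arrays 9 lay below both unstimulated ones, and the difference was -0.65 ± 0.14 (adjusted p = 0.00403), or 1.57-fold lower. Mrpl34, a large subunit protein with a bacterial counterpart (L34), read 5563 and 5232 without GnRH and 2271 to 4521 (median 3571) with 100 nM. Its groups did not overlap, with a difference of -0.64 ± 0.13 (adjusted p = 0.00278).

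Mrpl44, a large subunit protein with a ribonuclease III fold, read 3400 and 2909 without GnRH and 1515 to 3439 (median 1996) with 100 nM, so that 9 of 10 arrays were below both. Its difference was -0.54 ± 0.14 (adjusted p = 0.0156). Mrps16, a small subunit protein with a bacterial counterpart, was dim and had the lowest fitted value, -0.70 ± 0.23 (adjusted p = 0.0484), from 576 and 918 to 237 to 599. Its groups overlapped. Mrpl39, Mrpl36 and Mrpl2 fell by 0.48, 0.45 and 0.39 on the log2 scale, with adjusted p from limma of 0.0448, 0.0247 and 0.0375. The other probe sets of Mrpl36 and Mrpl2 stayed under the limit for low signals and were not tested.

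The remaining named mitochondrial members did not pass in this comparison. Mrpl12, a large subunit protein that also binds mitochondrial RNA polymerase, read 7605 and 7620 without GnRH and 4738 to 10122 (median 6970) with 100 nM, a difference of -0.18 ± 0.13 (adjusted p = 0.385). Mrps12, a small subunit protein of the decoding centre, read 7180 and 6218 without GnRH and 4439 to 7850 (median 5934) with 100 nM, a difference of -0.15 ± 0.12 (adjusted p = 0.427). For both, the 100 nM arrays lay on either side of the unstimulated ones. The mitochondrial count of 7 became 1 without unstimulated A, 2 without unstimulated D, and 4 without tonic A or 4 pulses D at 100 nM. The median of -0.11 became -0.22 without unstimulated D. With cyclic loess 2 members fell and with array medians set equal 3.

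**Figure D3:**
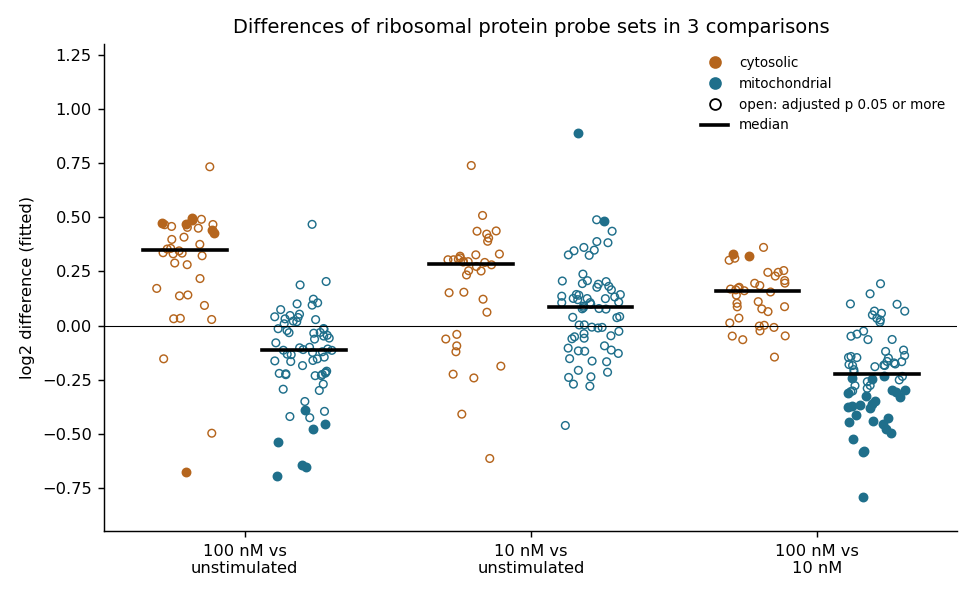
Fitted log2 difference of each tested member in 3 comparisons, cytosolic in brown (36) and mitochondrial in blue (68); filled points have an adjusted p under 0.05, open points do not, and black bars are class medians. The cytosolic medians are 0.35, 0.29 and 0.16 and the mitochondrial medians -0.11, 0.09 and -0.22, from left to right.

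At 10 nM (8 arrays against 2) the class medians were 0.29 for the cytosolic and 0.09 for the mitochondrial members, beside -0.05 over all tested probe sets. In limma 0 cytosolic members passed, with 14 of 36 at an unadjusted p under 0.05. Among these, Rpl22 (92857_at, -0.61) and Rps28 (98086_r_at, -0.41) lay below 0 and the others above it. Of the mitochondrial members 2 rose and 0 fell, while 1.25% of all tested probe sets rose. Mrpl54, a large subunit protein, read 1566 and 1809 without GnRH, 2754 to 3805 (median 3202) with 10 nM and 1815 to 3269 (median 2309) with 100 nM. All 18 stimulated arrays were above both unstimulated ones, and the difference for 10 nM was 0.89 ± 0.17 (adjusted p = 0.0112). Mrpl17, a large subunit protein, read 2853 and 2797 without GnRH and 3597 to 4546 (median 4002) with 10 nM, a difference of 0.48 ± 0.12 (adjusted p = 0.0468). In this comparison the dose and the replicate letters cannot be told apart. The count stayed at 2 without any 1 array of 4 or 8 pulses at 100 nM or without 4 pulses B at 10 nM, and was 0 without either unstimulated array and 1 without any other. With quantile normalisation and cyclic loess the cytosolic median was 0.01 and 0.02.

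**Figure D4:**
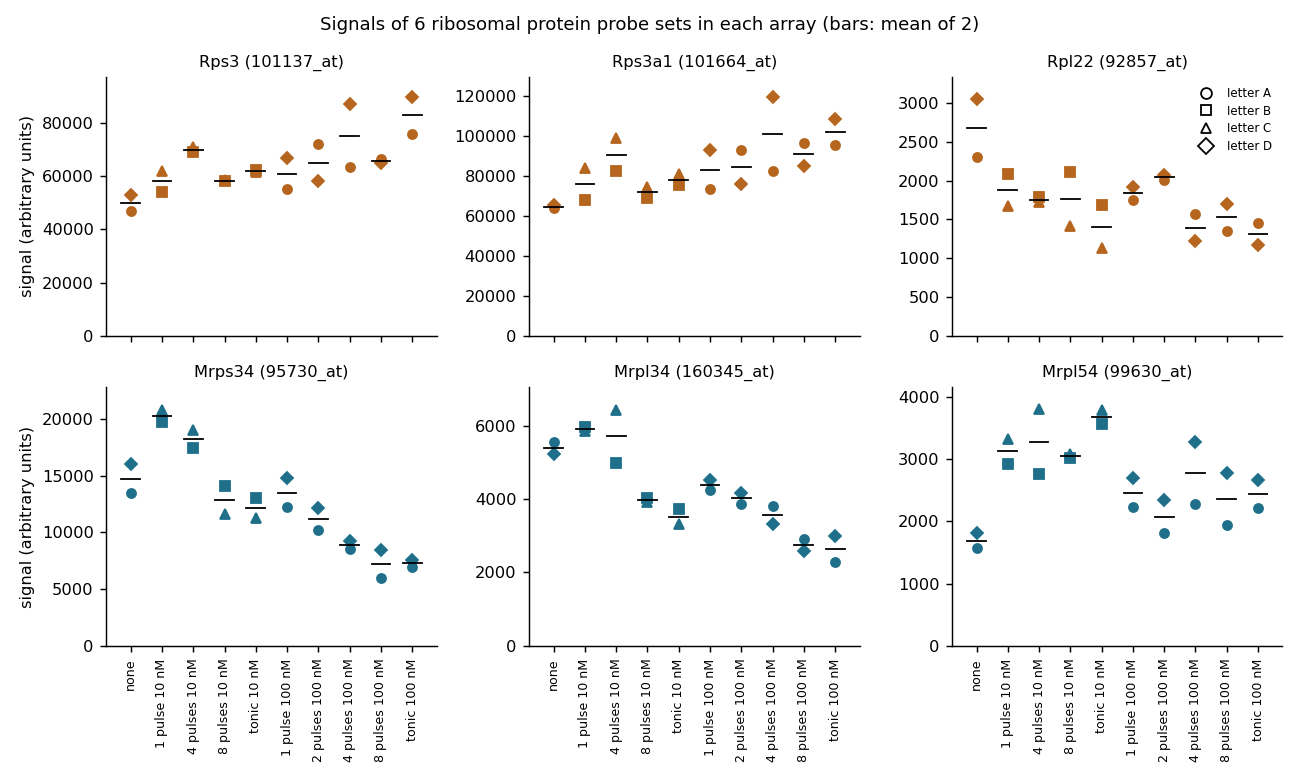
Signal (arbitrary units, linear axes from 0) of 6 probe sets in each of the 20 arrays, by group, with marker shapes for the replicate letter and bars for the mean of 2 arrays. Rps3 and Rps3a1 lie above and Rpl22 (92857_at) below their unstimulated arrays in all 18 stimulated ones, Mrps34 reads highest after 1 pulse of 10 nM (20765) and lowest after 8 pulses of 100 nM (5970), and Mrpl54 is highest at 10 nM.

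The counts differed between the patterns of delivery at 100 nM, a difference that was not itself tested. After 1 and 2 pulses of 100 nM limma called 0 members. At an unadjusted p under 0.05 there were 3 cytosolic and 3 mitochondrial members after 1 pulse, and 3 and 4 after 2 pulses. After 4 pulses 9 cytosolic members rose and 1 fell, and 1 mitochondrial member rose and 6 fell, where 6.22% of all tested probe sets rose and 8.72% fell. The mitochondrial share that fell was thus close to that over all probe sets. After 8 pulses 1 cytosolic member rose and 1 fell, and 0 mitochondrial members rose and 8 fell, where 6.55% of all rose and 7.76% fell. Both cytosolic shares lay below those over all probe sets. With tonic 100 nM 10 cytosolic members rose and 1 fell, and 0 mitochondrial members rose and 15 fell, where 8.59% of all rose and 11.8% fell. The cytosolic medians were 0.49, 0.35 and 0.51 in these 3 groups, and the mitochondrial medians -0.06, -0.23 and -0.26. With tonic 100 nM all tested probe sets in bins 5 to 8 of signal had medians of -0.17, -0.20, -0.18 and -0.19. Bins 9 and 10 had -0.11 and 0.14.

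With 4 pulses of 100 nM the highest called cytosolic difference was that of Rps7, at 0.73 ± 0.18 (adjusted p = 0.0112), next to Rps10 at 0.68 ± 0.20 (adjusted p = 0.0296). Rps10, a small subunit protein mutated in Diamond-Blackfan anaemia, read 48391 and 52731 without GnRH and 56417 to 94353 over all 100 nM arrays, without overlap. Mrpl44, Mrpl37 and Mrpl38 were the lowest mitochondrial members there, at -0.89 ± 0.18, -0.79 ± 0.23 and -0.72 ± 0.19 (adjusted p = 0.00423, 0.0267 and 0.0162), and Mrpl54 rose by 0.65 ± 0.21 (adjusted p = 0.0481). After 8 pulses Rpl13a, a large subunit protein with a known role in translational silencing after interferon, rose by 0.62 ± 0.16 (adjusted p = 0.0145), Mrps34 fell by 1.03 and Mrpl34 by 0.94 on the log2 scale (adjusted p = 0.000818 and 0.000992).

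With tonic 100 nM Rps3 rose by 0.73 ± 0.17 (adjusted p = 0.00459) and Rps28 (98085_f_at) by 0.70 ± 0.21 (adjusted p = 0.0273), although its difference was -0.0044 with quantile normalisation. The other Rps28 probe sets went opposite ways over all 100 nM arrays. The dimmer 98086_r_at read 1417 and 2343 without GnRH and 922 to 1577 with 100 nM, with 8 of 10 arrays below both. In 100758_at, from 59092 and 74667 to 71379 to 121333, 8 of 10 lay above both. Of the 10 cytosolic members called higher 8 were small subunit probe sets, as were 20 of all 36 tested cytosolic members. Mrpl34 was 2.01-fold lower (-1.01 ± 0.17, adjusted p = 0.000329) and Mrps34 was 2-fold lower (adjusted p = 0.000609). Mrps5, a small subunit protein with a bacterial counterpart at the message channel, read 2683 and 2569 without GnRH and fell by 0.92 on the log2 scale (adjusted p = 0.00563), and Mrps10 fell by 0.86 (adjusted p = 0.0052). Of the tested small subunit members of the mitochondrial ribosome 7 of 25 fell with tonic 100 nM, and of the large subunit members 8 of 43.

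These counts by pattern rested on few arrays. After 4 pulses the cytosolic count of 9 was 0 without either unstimulated array or without 4 pulses D, and the mitochondrial count of 6 was 2 and 1 without unstimulated A and D and 0 without 4 pulses D. After 8 pulses the cytosolic count of 1 was 0 without 8 pulses A or either unstimulated array, and the mitochondrial count of 8 was 4 without 8 pulses A and 3 without unstimulated A. With tonic 100 nM the cytosolic count of 10 was 0 without unstimulated A or tonic D, 3 without unstimulated D and 6 without either array of 8 pulses at 10 nM, and the mitochondrial count of 15 was 8, 8 and 7 without tonic A, tonic D and unstimulated A. RNA quality can be read from the ratio of the 3' to the 5' control probe set of Gapdh, which was 1.69 in 8 pulses A, 1.23 in 4 pulses D and 1.21 in 4 pulses A at 100 nM, beside 0.92 and 0.98 in the unstimulated arrays. The same ratio of Actb was 4.13, 3.68 and 3.32 in these arrays, and also 3.64 in 1 pulse C at 10 nM and 3.30 in 1 pulse D at 100 nM, beside 2.25 and 2.42 unstimulated. Over the 20 arrays the cytosolic median went with the Gapdh ratio at Pearson r = 0.448 and Spearman rho = 0.540 (r = 0.333 without the 2 farthest arrays), and the mitochondrial median at r = -0.405 and rho = -0.343 (r = -0.321). The part of RNA quality in the results was not tested beyond leaving out arrays. With the letter as a replicate block the cytosolic counts after 4 pulses, 8 pulses and tonic 100 nM were 19, 4 and 17, so that the count after 4 pulses then exceeded the tonic one, and the tonic mitochondrial count was 23.

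At 10 nM limma called 0 members after 1, 4 and 8 pulses, with 4, 14 and 5 cytosolic and 15, 13 and 5 mitochondrial members at an unadjusted p under 0.05. With tonic 10 nM Mrpl54 rose by 1.05 ± 0.21 (adjusted p = 0.00546), Mrpl34 fell by 0.59 and Rpl22 (92857_at) by 0.86 on the log2 scale (adjusted p = 0.0361 and 0.0249), where 3.89% of all tested probe sets rose and 3.52% fell. The class medians with tonic 10 nM were 0.27 for the cytosolic and -0.06 for the mitochondrial members. Without unstimulated A or either tonic 10 nM array Mrpl34 was no longer called. As for all 10 nM groups, the unstimulated arrays carry other letters, and a letter term cannot account for a difference between the letter sets.

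The trend with pulse number, as the difference for each doubling, gave 1 cytosolic member that rose and 6 mitochondrial members that fell at 100 nM, where 3.67% of all tested probe sets rose and 3.22% fell. Mrps34 changed by -0.30 ± 0.06 for each doubling (adjusted p = 0.00267), Mrpl44 by -0.26 ± 0.06 (adjusted p = 0.0113) and Mrpl2 by -0.24 ± 0.05 (adjusted p = 0.00524). In Mrps34 the 2 arrays read 12216 and 14784 after 1 pulse, 10234 and 12189 after 2, 8559 and 9276 after 4, and 5970 and 8447 after 8 pulses, so that the groups given 4 and 1 pulse did not overlap. Mrpl34, Mrpl36 and Mrpl4 completed the list. Rpl13a rose by 0.18 ± 0.05 (adjusted p = 0.0423), and the cytosolic share that rose was below that over all probe sets. Below 0 were 59 of 68 mitochondrial members, with a median of -0.09. No share below 0 over all tested probe sets stands beside this, so it is not read as particular to the class. The count of 6 was 3 without 8 pulses A or 1 pulse A, and 2 without 1 pulse D.

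The trend at 10 nM was called for Mrpl2, a large subunit protein near the peptidyl transferase centre, where 0.542% of all tested probe sets fell. It changed by -0.23 ± 0.05 for each doubling (adjusted p = 0.0183). The mitochondrial members had a median of -0.07 with 64 of 68 below 0, and the cytosolic members a median of -0.03. Here too no share over all tested probe sets is given, so the sign is not read as particular to a class. Letters B and C pair the 10 nM arrays, and with that replicate block 4 members were called. The call was lost without 8 pulses B or either array of 1 pulse at 10 nM, and 2 members were called without 4 pulses B. For the difference of both trends limma called 0 members, with 2 cytosolic and 0 mitochondrial members at an unadjusted p under 0.05. For tonic delivery against 8 pulses it called 0 at either dose, with 0 cytosolic and 4 mitochondrial members at an unadjusted p under 0.05 for 100 nM and 1 of each class for 10 nM.

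Doses were compared over the 4 patterns given at both (8 arrays each). Of the 68 mitochondrial members 26 were lower at 100 nM than at 10 nM and 0 were higher, where 12.7% of all tested probe sets were lower and 10.9% higher. The 26 made up 16 of 43 large subunit and 10 of 25 small subunit probe sets. The median difference was -0.22, with 57 of 68 below 0, beside a median of 0.01 over all tested probe sets. The share below 0 over all tested probe sets is not given, so that sign count is not read as particular to the class. Among the brightest 40% of probe sets, where 50 of the 68 lie, 23 members were lower with a median of -0.24, beside 683 of 3397 and -0.03 for all probe sets there. Of the cytosolic members 2 were higher and 0 lower, with a median of 0.16. Both shares lay below those over all tested probe sets. The dose cannot be told apart from the replicate letters in this comparison, since the 100 nM arrays carry A and D and the 10 nM arrays B and C.

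Mrps34 led the dose comparison. Its signal ran from 5970 to 14784 (median 8503) in the 8 arrays given 100 nM and from 11313 to 20765 (median 15801) in those given 10 nM, which overlap, and the fitted difference was -0.79 ± 0.09 (adjusted p = 1.51e-05), or 1.73-fold lower. Mrps10, a small subunit protein at the head of the subunit, ran from 1709 to 3799 (median 2585) at 100 nM and from 2721 to 5433 (median 4130) at 10 nM. Its difference was -0.58 ± 0.10 (adjusted p = 0.000553). Mrpl37, a large subunit protein, ran from 2887 to 5683 (median 4061) at 100 nM and from 4950 to 7197 (median 6176) at 10 nM, a difference of -0.58 ± 0.11 (adjusted p = 0.00151).

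Mrps12 and Mrpl12, which were not called against unstimulated cells, were lower here, at -0.48 ± 0.08 and -0.38 ± 0.09 (adjusted p = 0.000336 and 0.00358). Mrps24, a small subunit protein, was the 1 member whose 8 arrays of 100 nM all lay below the 8 of 10 nM, where 0.342% of all tested probe sets did so. It read up to 8888 in the former and at least 9154 in the latter, and 8956 and 8348 in the unstimulated arrays. Its name falls outside the rule for named genes and was chosen after its values were seen. Against the unstimulated arrays the called members lay on different sides. Mrpl34 was lower at both doses in most arrays (10 of 10 at 100 nM and 5 of 8 at 10 nM), and Mrpl54 was higher in all 18.

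Of the cytosolic members, Rpl7l1 (a relative of Rpl7 that takes part in early ribosome assembly) was higher at 100 nM by 0.33 ± 0.09 (adjusted p = 0.0124), with 2478 to 3391 (median 2812) against 1832 to 2545 (median 2291). Rps24, a small subunit protein mutated in Diamond-Blackfan anaemia, was higher by 0.32 ± 0.09 (adjusted p = 0.014) in its probe set 97696_r_at, whose probes may match other transcripts. In both the 2 doses overlapped. The dim Rps24 probe set 93121_at read 163 to 577 at 100 nM and 197 to 501 at 10 nM.

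Without any single array the mitochondrial count stayed between 20 and 31. Without the 3 arrays of highest Gapdh ratio it was 9, and without all arrays of letter A or letter C it was 11 each. No share over all tested probe sets in the same setting stands beside the counts of this paragraph. A change in the members therefore cannot be told apart from one over the whole array. The 3 arrays of highest Gapdh ratio include both arrays of 4 pulses at 100 nM, so that group had no array left. The count of 9 thus covers fewer patterns, and the part of RNA quality in it was not tested. With the 12 samples whose labels agree the mitochondrial count was 17, and with groups from the contradicting label field 0. The cytosolic count of 2 was 5 and 4 without 4 pulses A and 1 pulse A at 100 nM.

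**Figure D5:**
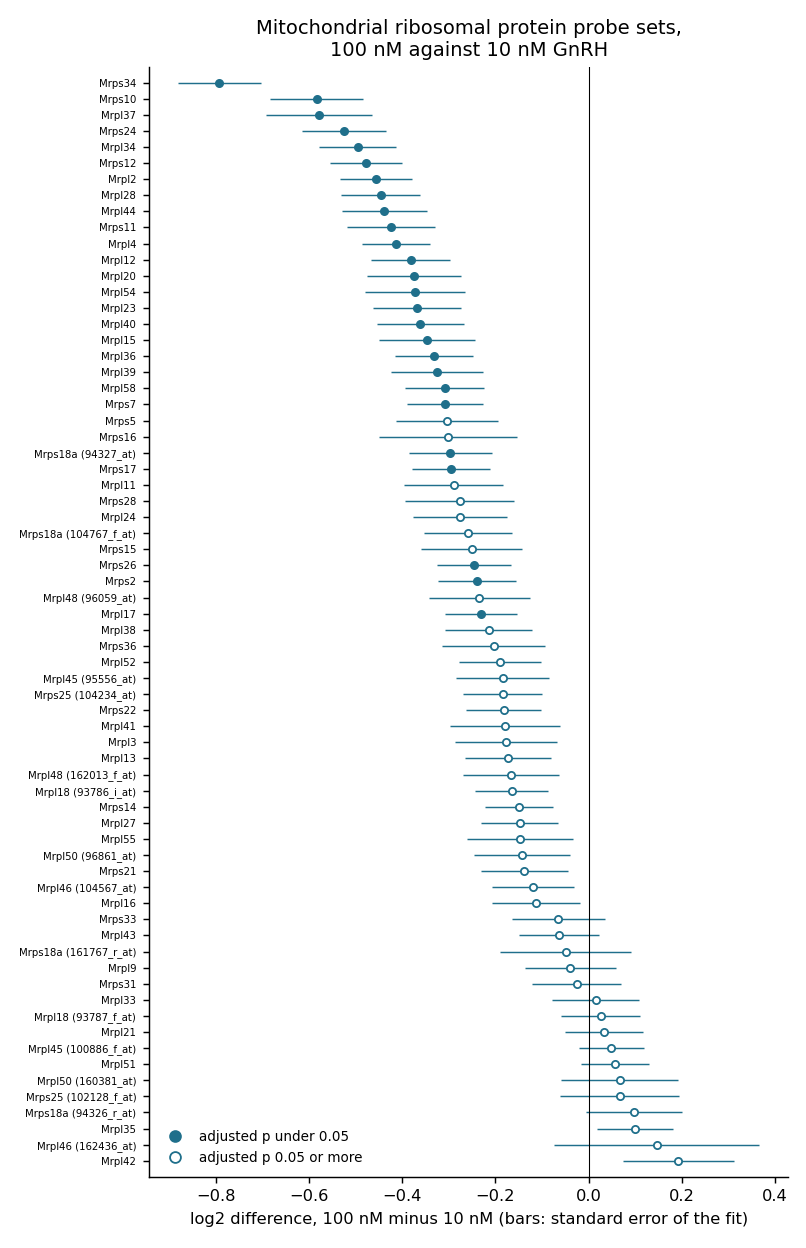
Log2 difference of 100 nM minus 10 nM for the 68 tested mitochondrial probe sets in order of size, with the standard error of the fit as bars; filled points have an adjusted p under 0.05, and probe set names are given where a gene has several. Mrps34 lies lowest at -0.79 and 57 of the 68 lie below 0.

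Genes that work with these ribosomes were taken from written lists. The lists were chosen with earlier results of these data known, so their counts are a description and no independent support. Of 20 tested probe sets for mitochondrial translation outside the ribosomal protein symbols, 6 fell and 0 rose with 100 nM against unstimulated, with a median of -0.39, where 7.84% of all tested probe sets fell. With tonic 100 nM 8 fell and 0 rose, where 11.8% of all fell. Eral1, which helps assemble the small mitochondrial subunit, fell by 0.75 and 0.59 on the log2 scale in its probe sets 103859_at and 103858_at (adjusted p = 0.0137 and 0.0365), and Rars2, the mitochondrial arginyl-tRNA synthetase, fell by 0.63 (adjusted p = 0.0085). In 100 nM against 10 nM 7 were lower and 1 higher, where 12.7% of all were lower and 10.9% higher. The lowest were Tufm, the mitochondrial elongation factor Tu, at -0.70 ± 0.09 (adjusted p = 6.43e-05), and Dap3, a small subunit protein under another name, at -0.53 ± 0.11 (adjusted p = 0.00196).

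Of 45 tested probe sets for cytosolic translation factors 7 rose and 0 fell with 100 nM against unstimulated, with a median of 0.12, where 6.37% of all tested probe sets rose and 7.84% fell. Against 10 nM 10 were higher and 4 lower at 100 nM, where 10.9% of all were higher and 12.7% lower. Eif1a, an initiation factor for start codon scanning, rose by 1.02 ± 0.17 (adjusted p = 0.000846) and Etf1, the release factor, by 0.90 ± 0.21 (adjusted p = 0.00759). Of 62 probe sets for ribosome assembly and ribosomal RNA synthesis 4 rose and 1 fell with 100 nM against unstimulated, with a median of 0.06. The share that rose was close to the 6.37% over all probe sets. Against 10 nM 11 were higher and 11 lower, Bop1 among the latter at -0.59 ± 0.12 (adjusted p = 0.002). With tonic 100 nM against unstimulated 4 rose and 1 fell, where 8.59% of all rose and 11.8% fell. The 1 that fell was Imp3, at -0.80 ± 0.13 (adjusted p = 0.000336). With 100 nM against unstimulated Sbds, which readies the large subunit for translation, rose by 0.97 ± 0.15 (adjusted p = 0.000312). Nop58, a core protein of small nucleolar particles, rose by 0.64 ± 0.18 (adjusted p = 0.0218) and Ppan, an assembly factor of the large subunit, by 0.55 ± 0.15 (adjusted p = 0.0197). Of 22 probe sets for translation control by mTORC1 and kinases 1 rose and 1 fell, both shares below those over all probe sets. Eif4ebp1, a repressor of the cap-binding protein that is itself inhibited by mTORC1, rose by 0.78 ± 0.15 (adjusted p = 0.00165). Sesn1, a stress-induced inhibitor of mTORC1, fell by 0.79 on the log2 scale (adjusted p = 0.00227).

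The promoters of both classes were compared for short motifs, since the classes are each known to share promoter features. RefSeq windows of GRCm38.p6, 250 bases before to 50 after the start, were held for 82 of the 96 member genes in 97 windows. Shown are 100 bases (80 before the start and 20 from it) for the called members Rps3, Rps7, Mrpl34 and Mrpl44, with matches to an ETS factor motif (CCGGAAG) or to the core of the NRF1 motif (GCGCANGCG) on either strand in capitals. Rps3 lies on the minus strand at chr7:99483690-99483789, Rps7 on the minus strand at chr12:28635934-28636033, Mrpl34 on the plus strand at chr8:71464846-71464945 and Mrpl44 on the plus strand at chr1:79775938-79776037.
Rps3: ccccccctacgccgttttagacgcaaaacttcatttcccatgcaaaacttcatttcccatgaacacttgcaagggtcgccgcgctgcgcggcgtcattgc
Rps7: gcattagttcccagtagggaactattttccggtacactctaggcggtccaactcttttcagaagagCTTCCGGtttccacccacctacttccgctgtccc
Mrpl34: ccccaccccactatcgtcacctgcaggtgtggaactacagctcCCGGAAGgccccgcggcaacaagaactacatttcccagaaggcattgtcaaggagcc
Mrpl44: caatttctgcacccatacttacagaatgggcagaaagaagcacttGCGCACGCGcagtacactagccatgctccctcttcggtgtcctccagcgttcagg

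Rps7 and Mrpl34 each hold the ETS letters, Mrpl44 holds the NRF1 letters, and Rps3 holds neither in these bases. The ETS motif was in 32.4% of the 37 windows of cytosolic members and in 31.7% of the 60 windows of mitochondrial members, beside 8.86% of all 32851 windows. The NRF1 core was in 16.2% and 15% of them, beside 6.25% of all. The motif GCGGGGGCG of Egr1, a transcription factor induced by GnRH, was in 13.5% and 5%, beside 2.91% of all, and TATAAA was in 10.8% and 8.33%, beside 13.6%. The longest run of C and T within 20 bases of the start had a median of 6 bases in cytosolic and 5 in mitochondrial windows, beside 5 in all. Matches of different motifs overlapped in 1 member window, a gene can have several windows, and a match is a description of the letters only.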

How the data were processed

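The authors deposited probe set signals made with MAS5, per the submitters' processing notes, as intensity values on a linear scale; its version is not given in the sources used here. Each array's trimmed mean was 2501.25 to 2501.75, so arrays had been brought to 1 level, and this was kept. Members were matched through GEO's platform annotation, which can be old. Signals became log2(signal + 166.8), with 166.8 the 25th percentile of the table. Probe sets above 427 (the 40th percentile) on at least 2 arrays were kept, without 66 controls, which left 8491. All 20 arrays entered 1 limma fit with a mean for each group (limma 3.58.1, R 4.3.3, 10 residual and 8.2 prior degrees of freedom, intensity trend, two-sided tests), a procedure checked on simulated data. Members, gene lists and the rule for naming were chosen with earlier results of these data known. Named were, for each class, up to 6 called members of largest change for 100 nM against unstimulated and up to 3 in each other comparison, and Rplp0, Rpsa, Rpl22, Rps27l, Mrpl12 and Mrps12, together with up to 3 called probe sets of each pathway list. Rps18, Mrpl4, Mrpl14 and Mrps24 fall outside this rule and were named after their values were seen. Residuals of arrays sharing letter B or C correlated at 0.13 to 0.35 in all 6 pairs of 10 nM groups, which pairs them, and those of A and D passed 0.1 in 14 of 15. The main fit has no term for the letter, so its p-values and counts leave this pairing out. Counts with the letter as a replicate block are given as an alternative. Sequences come from RefSeq (GRCm38.p6).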

Additional observations from a re-analysis of the deposited data

How the results depend on the processing

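The alternatives were 3 other scalings, a floor in place of the constant, no filter or a stricter one, no intensity trend, the letter as a replicate block, 1 probe set for each gene, members without a suffix, only the arrays compared, 2 other groupings, and leaving out arrays; leaving out all arrays of 1 letter was added after the data were seen. Causes of the changes were not tested. No share over all tested probe sets in the same setting stands beside the counts here, so they are not read as particular to the members. Below, C is the count of cytosolic members called higher and M that of mitochondrial members called lower.

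With quantile normalisation C was 0 for 100 nM, 1 after 4 pulses and 1 with tonic 100 nM, M with tonic 10 nM was 2, the 10 nM trend gave 2 calls, and the cytosolic medians were 0.053 for 100 nM and 0.010 for 10 nM. The difference of Rps28 (98085_f_at) with tonic 100 nM turned to -0.0044. With array medians set equal C was 2 and M 3 for 100 nM, M was 5 after 8 pulses, 9 with tonic 100 nM and 0 with tonic 10 nM, and the 10 nM trend gave 0. With cyclic loess C was 0 and M 2 for 100 nM, both were 2 after 4 pulses, C was 3 and M 8 with tonic 100 nM, and the cytosolic medians were 0.12 and 0.021. Without a filter C was 0 for 100 nM, 2 after 4 pulses, 1 with tonic 100 nM and 1 with tonic 10 nM, and with the stricter filter C was 11 for 100 nM. Without the intensity trend C was 1, 3 and 4 for 100 nM, 4 pulses and tonic, M with tonic 10 nM was 0, and 10 nM gave 1 call.

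With the letter as a replicate block, fixed or random, C was 15 for 100 nM in both, 19 or 17 after 4 pulses, 4 or 3 after 8 pulses and 17 or 16 with tonic 100 nM, and M of the 100 nM trend was 16 or 13. With the fixed block M was 23 with tonic 100 nM and 5 with tonic 10 nM, C was 1 with tonic 10 nM, 10 nM gave 10 calls and its trend 4. In comparisons of 10 nM with unstimulated arrays, which carry other letters, this term does not account for a difference between the letter sets. With the random block 10 nM gave 1 call, its trend 3, and C was 1 for 100 nM against 10 nM. That last count was also 1 with members without a suffix. With only the arrays compared C was 0 and M 4 for 100 nM, and 10 nM gave 1 call.

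With groups from the characteristics every count above was 0, that of M for 100 nM against 10 nM included, and the cytosolic medians were 0.035 and -0.016. Signs then turned for 100 nM in Rpl22 (0.055), Rps3a1 (-0.0053), Rpl7 (-0.0037), Rpl10a (-0.042), Rps7 (-0.11) and Mrpl44 (0.012), after 4 pulses in Rpl22 (0.043), and with tonic 100 nM in Rpl22 (0.21), Rps3 (-6e-04) and Rps28 (-0.034). With the 12 samples whose labels agree M was 17 for 100 nM against 10 nM, 1 after 8 pulses and 1 with tonic 100 nM, the mitochondrial median for 100 nM was -0.24, and the other counts that moved were 0. The 3 arrays of highest Gapdh ratio include both arrays of 4 pulses at 100 nM. Counts without them therefore lack that group and do not cover the same patterns as the main counts. Without these 3 arrays C was 2 and M 4 for 100 nM, and M of the 100 nM trend was 1. For 100 nM against 10 nM C was 0 and M 9. Without letter A these were C 8 and M 11 for 100 nM against 10 nM, without B C was 0, and without C they were 0 and 11.

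Leaving out each array in turn gave C of 0 to 14 and M of 1 to 7 for 100 nM, C of 0 to 12 and M of 0 to 6 after 4 pulses, C of 0 to 1 and M of 3 to 8 after 8 pulses, and C of 0 to 13 and M of 7 to 16 with tonic 100 nM. M with tonic 10 nM was 0 to 1, calls for 10 nM were 0 to 2 and for its trend 0 to 2, and M of the 100 nM trend was 2 to 8. For 100 nM against 10 nM C was 2 to 5 and M 20 to 31. The mitochondrial median for 100 nM was -0.22 to -0.056. A lone array left in a group was assumed to vary like the others.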
